A study of Mus musculus with 4 samples.

Results

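The RNA of 10 growth factor receptor and ligand genes was described in cultured neural stem cells of the mouse: the EGF receptor family (Egfr, Erbb2, Erbb3, Erbb4), the FGF receptors Fgfr1 and Fgfr2, and the ligands Fgf2, Hbegf, Tgfa and Nrg1. They were taken by symbol from the 55414 genes of the count files because the cultures are grown with EGF and basic FGF, and 9 of the 10 passed the low-count filter that left 19912 genes for testing. The groups were wild type and Mettl4 knockout, with 2 libraries each. Mettl4 encodes an adenosine methyltransferase. Per the labels, all 4 libraries came from primary neural stem cells of the E14.5 embryonic cortex, passed through floating spheres and then plated as a monolayer on poly-D-lysine. The medium, described for the sphere stage, held 20 ng/ml EGF and 10 ng/ml basic FGF. The labels give the same medium for both genotypes, and the counts measure only the RNA that the cells made themselves. Whether replicates are separate embryos or cultures, and which part of Mettl4 was deleted, the labels leave unsaid. P-values therefore reflect library-to-library spread that could be technical in part. Wherever a pair of library values is given for a genotype, replicate 1 comes first.

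EGF and FGF act through receptor tyrosine kinases. Ligand binding joins receptor molecules into dimers, their kinase domains phosphorylate each other, and adaptors pass the signal to RAS, RAF, MEK and ERK. In the EGF family, EGFR binds EGF, TGF-alpha and HB-EGF, ERBB3 and ERBB4 bind neuregulins, ERBB2 has no known ligand of its own and serves as a dimer partner, and ERBB3 has a kinase of very low activity. FGF ligands need heparan sulfate to bind their receptors well. Neural stem cells from the embryonic forebrain depend on EGF, basic FGF or both to divide in culture.

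The libraries held 12812064 to 19310668 counts. Mettl4 RNA was at 63.8 and 66.6 CPM in the wild type and at 15.6 and 17.6 CPM in the knockout (CPM, counts scaled to library size with TMM factors; log2 fold change -1.97, SE 0.17; adjusted p = 0.0051 by edgeR's quasi-likelihood test with Benjamini-Hochberg adjustment). Stem cell markers were present in every library, with Sox2 between 174 and 213 CPM and Nes between 258 and 399 CPM. Wild type replicate 1 stood apart in sex-linked RNA. It had 626 counts of the Y-linked Ddx3y, against 0 in each of the other 3 libraries, and 3784 counts of Xist against 54699 to 65857. The wild type libraries therefore did not come from an identical set of embryos, and their spread includes this difference. Both knockout libraries were like wild type replicate 2 in these RNAs. The part of wild type replicate 1 in the results below was not tested, and the fits without it are given where they turn a direction.

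The 10 genes spanned a wide range of RNA levels, and Egfr stood at the top. Levels of different genes are compared as CPM per kilobase of annotated exon. Egfr measured 56.7 and 64.0 CPM per kilobase in wild type libraries and 58.5 and 58.0 in knockout libraries. Only between 3.32% and 4.12% of the tested genes with a known length had a higher level in the same library. Fgfr1 came next at 12.3 to 20.3 CPM per kilobase over the 4 libraries, then Erbb4 at 5.08 to 6.03 and Fgfr2 at 2.22 to 2.46. By this length these 4 receptors did not overlap in range with each other, and their order was the same in 4 of 4 libraries. With the longest transcript as the length, Egfr and Fgfr1 still stood apart, but Erbb4 (5.21 to 6.19 CPM per kilobase) and Fgfr2 (5.18 to 5.74) overlapped, and Fgfr2 was the higher in wild type replicate 2.

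The lower part of the order was less well separated. Erbb2 ran from 1.25 to 2.13 CPM per kilobase and the EGFR ligand gene Hbegf from 1.08 to 1.97, so these neighbours could not be told apart. Tgfa, at 0.849 to 1.504, overlapped Hbegf too. Fgf2 (0.521 to 0.69) and Nrg1 (0.489 to 0.645) also overlapped in range, although Fgf2 was the higher of the pair in 4 of 4 libraries. Erbb3 lay at the floor of the measurement. Exon lengths came from an annotation of an earlier genome build, and with the longest transcript as the length the mean order of Fgf2 and Nrg1 and that of Erbb2 and Hbegf changed places. The lead of Egfr over Fgfr1 also depended on this choice: their ratio averaged 3.92 in the wild type and 4.14 in the knockout by all exons, and 2.22 and 2.34 by the longest transcript.

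**Figure D1:**
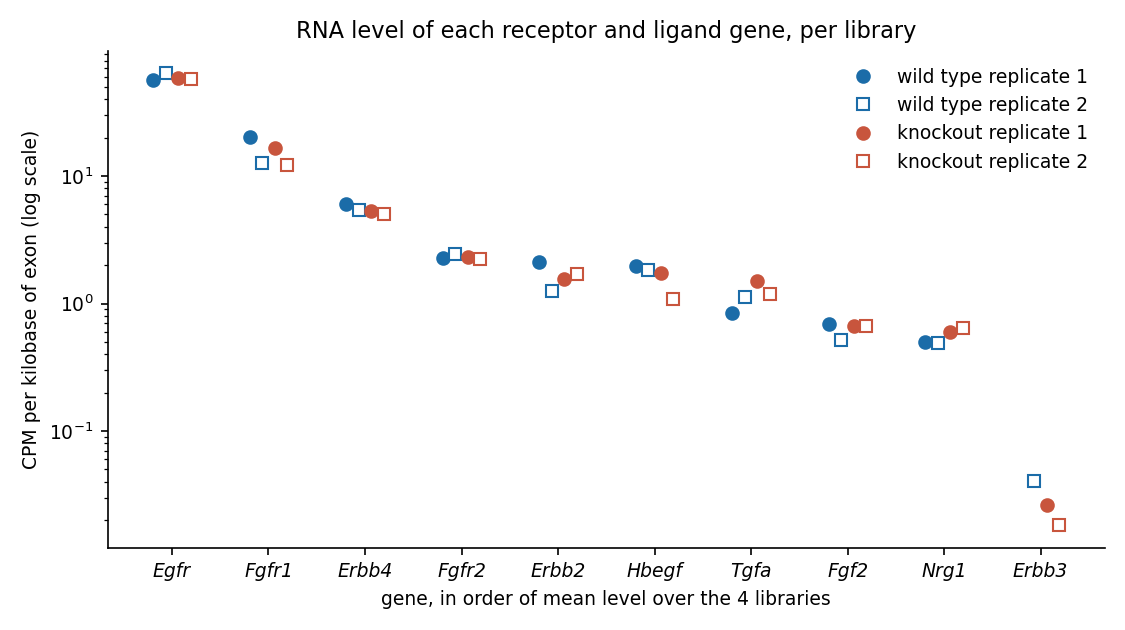
RNA level of each receptor and ligand gene in CPM per kilobase of exon (vertical axis, log scale), 1 symbol per library, genes in order of their mean over the 4 libraries. Egfr sits between 56.7 and 64.0 in every library, and Erbb3 has 3 points only because wild type replicate 1 had 0 counts.

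Egfr RNA showed no difference between genotypes beyond the spread of the replicates. It measured 642 and 725 CPM in the wild type (8503 and 11886 counts), and 662 and 657 CPM in the knockout (12555 and 11998 counts). Both knockout libraries lay between the wild type libraries. The group means were 683 ± 58.7 CPM and 660 ± 4.10 CPM (SD, n = 2 each). On the log2 scale the fold change was -0.05 with a 95% confidence interval from -0.45 to 0.35, so the knockout level lay between 0.732 and 1.27 times that of the wild type (edgeR quasi-likelihood test, adjusted p = 1.00).

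The other members of the EGF receptor family differed widely in level. Erbb4, a receptor for neuregulins and for HB-EGF, measured 74.5 and 66.7 CPM in the wild type and 66.2 and 62.7 CPM in the knockout. Both knockout libraries were below both wild type libraries, the nearest pair being 66.7 and 66.2 CPM. Its log2 fold change was -0.13 (SE 0.14), with an interval from -0.45 to 0.19 (edgeR adjusted p = 1.00). Per kilobase, Egfr stood 10.6 ± 1.74 times above Erbb4 in the wild type and 11.2 ± 0.359 times in the knockout (SD, n = 2 each).

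Erbb2, the ligandless dimer partner, varied most between the wild type libraries. It read 11.1 and 6.52 CPM there (147 and 107 counts), and 8.07 and 8.81 CPM in the knockout (153 and 161 counts). The knockout libraries lay inside the wild type range. Knockout minus wild type came to -0.05 on the log2 scale, with an interval from -0.68 to 0.58 (edgeR adjusted p = 1.00). This value ranged from -0.38 without wild type replicate 2 to 0.37 without wild type replicate 1, so its sign rested on which wild type library was used.

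Erbb3, a neuregulin receptor of glial progenitors and Schwann cells, was hardly detected. Its counts were 0 and 4 in wild type libraries and 3 and 2 in knockout libraries. The count of 0 allows up to 3 counts, or 0.234 CPM of the library total (counting error only), and the other 3 libraries ran from 0.104 to 0.237 CPM. No fold change is given, since both groups were at or near this limit. With Erbb3 this low, Erbb4 was the neuregulin receptor with the higher RNA level in all 4 libraries.

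The FGF receptors gave no call either, and Fgfr1 differed more between replicates than between genotypes. Fgfr1, the main FGF receptor of forebrain progenitors, measured 200 and 125 CPM in the wild type, and 163 and 121 CPM in the knockout. The groups overlapped, and in each genotype 1 library was well above the other, by 0.68 on the log2 scale in the wild type and 0.43 in the knockout. Between genotypes the log2 fold change was -0.20 with an interval from -0.70 to 0.31 (edgeR adjusted p = 1.00). It was -0.49 without wild type replicate 2 and 0.18 without wild type replicate 1.

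Fgfr2 was the steadiest of the 9 tested genes across libraries. It measured 23.5 and 25.4 CPM in the wild type and 24.0 and 22.9 CPM in the knockout, a range of 1.11-fold from the lowest to the highest library. The log2 fold change was -0.06 (SE 0.18), with an interval from -0.46 to 0.34 (edgeR adjusted p = 1.00). In the annotation used for exon lengths, 314 of the 10328 exon bases of Fgfr2 overlap Ctbp2 on the same strand. Ctbp2 had 1252 to 1820 counts, and reads from this stretch may have been counted for either gene. The ratio of Fgfr1 to Fgfr2 per kilobase ran from 5.16 to 8.93 in the wild type and from 5.52 to 7.10 in the knockout. Fgfr3, an FGF receptor outside the 10 genes that marks progenitors and astrocytes, was nearer to Fgfr1 than Fgfr2 was: Fgfr1 stood 1.11 to 2.33 times above Fgfr3 over the 4 libraries.

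The ligand genes were all low, and those of the EGF family showed the largest fitted differences among the tested genes of the 10. These differences were also less precise. Their SE ran from 0.25 to 0.28, against 0.14 to 0.23 for Egfr, Fgfr1, Erbb4 and Fgfr2. Tgfa encodes TGF-alpha, a membrane-anchored EGFR ligand released by the protease ADAM17. It measured 5.51 and 7.26 CPM in the wild type (73 and 119 counts), and 9.76 and 7.66 CPM in the knockout (185 and 140 counts). Both knockout libraries were above both wild type libraries, the nearest pair being 7.66 and 7.26 CPM. The log2 fold change was 0.44 with an interval from -0.14 to 1.03 (edgeR unadjusted p = 0.12, adjusted p = 1.00).

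Hbegf, which encodes the heparin-binding ligand HB-EGF of EGFR and ERBB4, had the opposite sign. It measured 9.51 and 8.78 CPM in the wild type (126 and 144 counts), and 8.34 and 5.20 CPM in the knockout (158 and 95 counts). Both knockout libraries were below both wild type libraries, and most of the distance came from knockout replicate 2. Its log2 fold change was -0.43 with an interval from -1.05 to 0.18 (edgeR unadjusted p = 0.15, adjusted p = 1.00). Without knockout replicate 2 it was -0.13, and without knockout replicate 1 it was -0.81.

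Within each library, Tgfa and Hbegf could be set against each other free of scaling between libraries. The ratio of Tgfa to Hbegf per kilobase was 0.432 and 0.616 in wild type libraries and 0.872 and 1.10 in knockout libraries. It was 1 of 11 such ratios computed, in 3 of which the groups did not overlap. Among single genes, 12.5% of all tested had both knockout libraries above the wild type and 14.8% had both below. The ratio was chosen with the values of both genes known, so it is a description without a test. In the wild type libraries Hbegf was the more abundant of these EGFR ligands per kilobase, and in the knockout they were near equal. By the longest transcript Hbegf was the higher in all 4 libraries, with a ratio of Tgfa to Hbegf of at most 0.941.

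Nrg1 encodes neuregulin 1, a ligand of ERBB3 and ERBB4. It measured 5.13 and 5.06 CPM in the wild type (68 and 83 counts), and 6.23 and 6.68 CPM in the knockout (118 and 122 counts). The groups did not overlap, and the replicates lay closer to each other than the genotypes did. The log2 fold change was 0.34 (SE 0.25), with an interval from -0.22 to 0.90 (edgeR unadjusted p = 0.21, adjusted p = 1.00). The interval includes 0, at 68 to 122 counts per library.

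Fgf2 encodes basic FGF itself, the factor added to the medium. Its own RNA was low, at 4.68 and 3.54 CPM in the wild type (62 and 58 counts), and 4.54 and 4.49 CPM in the knockout (86 and 82 counts). The knockout libraries lay inside the wild type range. Its log2 fold change was 0.14 with an interval from -0.49 to 0.77 (edgeR adjusted p = 1.00). In the annotation used for exon lengths, 640 of the 6782 exon bases of Fgf2 overlap Nudt6 on the opposite strand, which had 25 to 52 counts. No source used here states whether the counting used strand, and reads from this stretch may have been counted for either gene. Fgf1, another FGF ligand that was picked out after its values were seen, had 270 to 458 counts and stood 5.15 to 8.99 times above Fgf2 per kilobase.

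**Figure D2:**
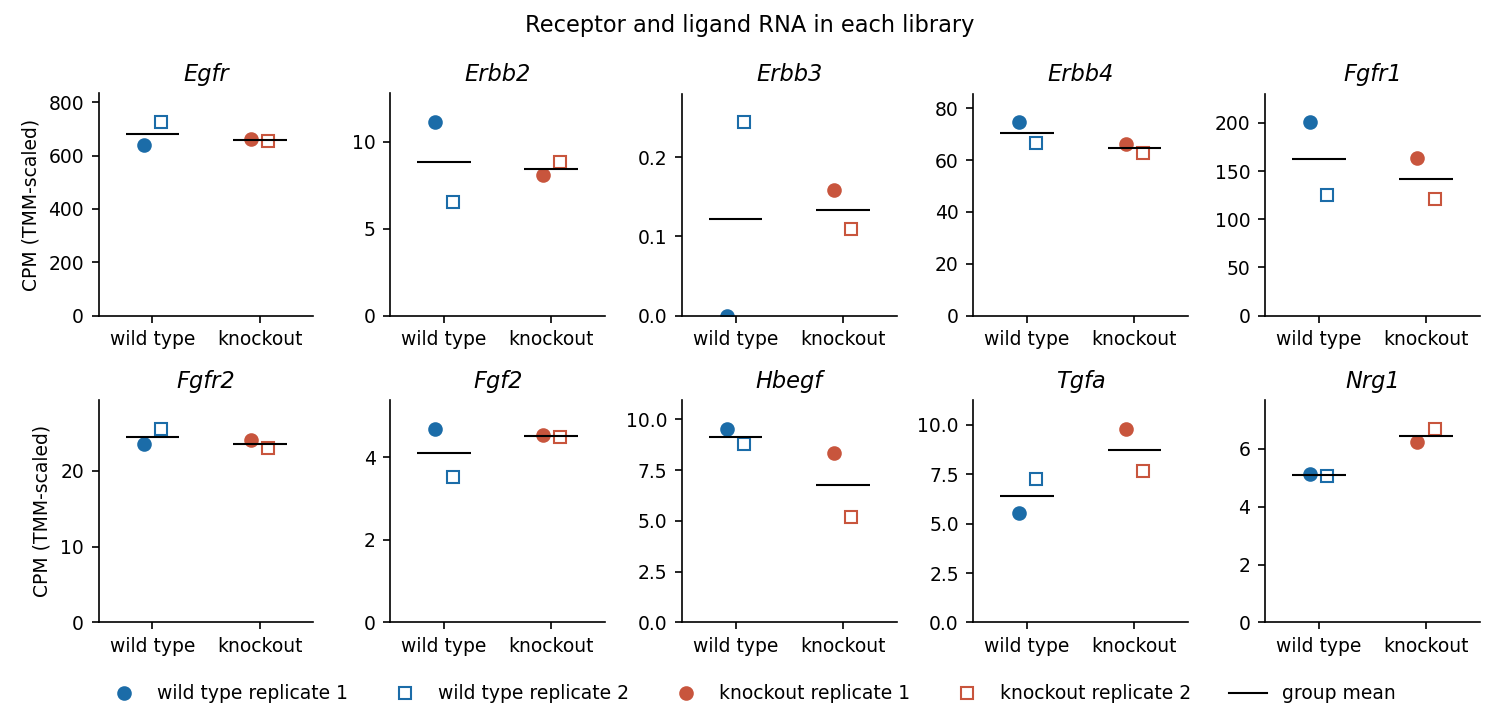
TMM-scaled CPM (vertical axes, each from 0) of the 10 genes in each library, with a bar at each group mean. The knockout libraries of Egfr, Erbb2 and Fgf2 lie inside the wild type range, while those of Tgfa and Nrg1 lie above it and those of Hbegf and Erbb4 below it.

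Calls among the receptors and ligands are given beside the share of all genes. So few of all genes were called that 0 of 9 does not set these genes apart. In the edgeR test 0 of the 9 tested genes were called, where 1 of the 19912 genes (0.00502%) was called, Mettl4 itself. At an unadjusted p under 0.05 there were 0 of 9, against 2.77% of all genes, and DESeq2 and limma-voom called 0 of 9 as well. The knockout libraries were both above the wild type libraries for 2 of 9 genes (12.5% of all genes) and both below for 2 of 9 (14.8% of all genes). Signs were positive for 3 genes and negative for 6, against 49.7% positive over all genes. The median was -0.05 for the 9 genes and 0.00 for all genes, with a range from -0.43 to 0.44.

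The intervals show what size of change these libraries can speak to. For the 4 best-counted receptors (Egfr, Fgfr1, Erbb4, Fgfr2) the upper ends of the 95% intervals lay between 1.14-fold and 1.27-fold of the wild type level, and the lower ends between 0.614-fold and 0.732-fold. For the ligands they were wider, and the upper end for Tgfa was 2.04-fold and the lower end for Hbegf 0.484-fold. Changes inside these bounds could not be told from none with 2 libraries a group.

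**Figure D3:**
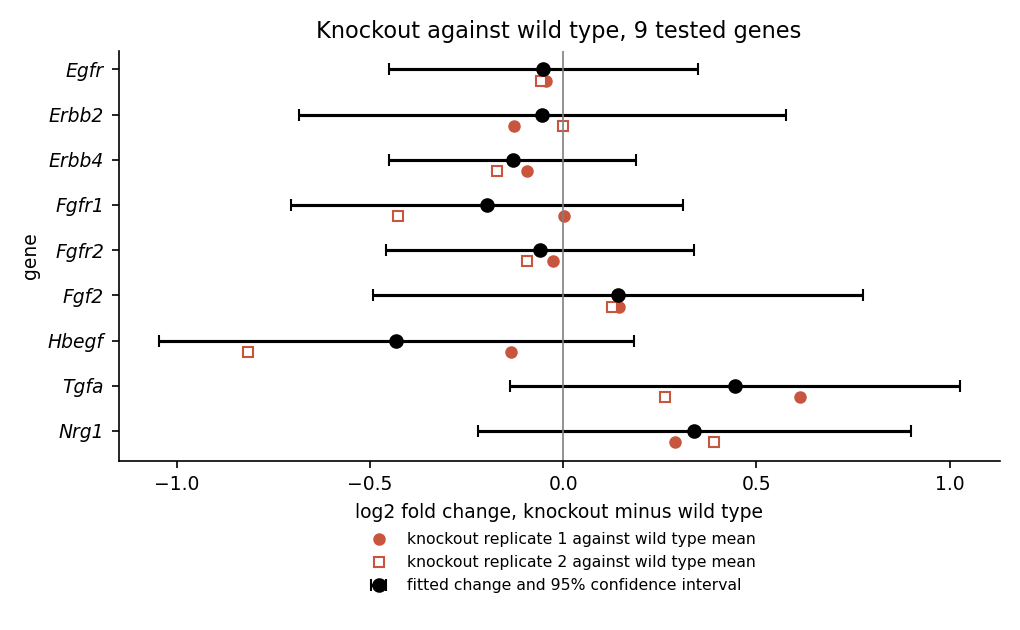
Log2 fold change, knockout minus wild type (horizontal axis), of the 9 tested genes with its 95% confidence interval, and below each the value of each knockout library against the wild type mean. All 9 intervals include 0, and the knockout replicates part most for Hbegf (-0.13 and -0.81) and Fgfr1 (0.00 and -0.43).

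For 7 of the 9 tested genes, the difference between replicates of 1 genotype was larger than the fitted difference between genotypes. Over all tested genes this share was 83.0%. The exceptions were Tgfa and Nrg1. For Tgfa the replicates differed by 0.40 in the wild type and 0.35 in the knockout on the log2 scale, against a genotype difference of 0.44. For Nrg1 they differed by 0.02 and 0.10, against 0.34.

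**Figure D4:**
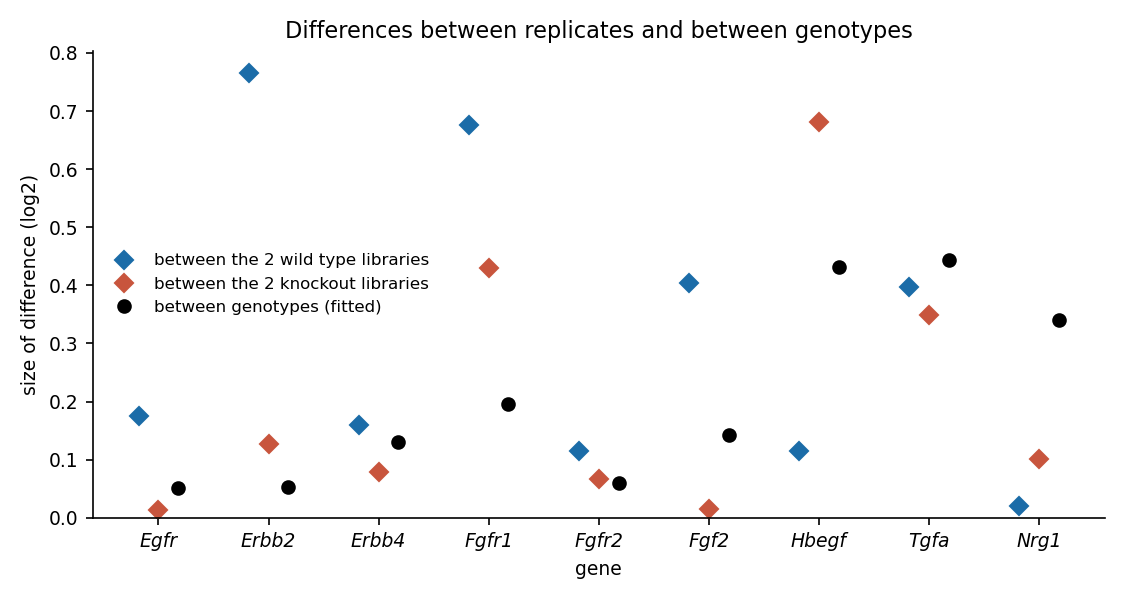
Size of the log2 difference (vertical axis, without sign) between the 2 wild type libraries, between the 2 knockout libraries and between genotypes, for each tested gene. The genotype difference exceeds both replicate differences for Tgfa (0.44) and Nrg1 (0.34), and is exceeded most clearly for Erbb2 and Fgfr1.

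Other genes of the same pathway are given from lists written down with the design, when earlier results of these data were known. The tested genes named from each list are those with the smallest p in the edgeR test. Among 8 other EGF family ligands, 4 were tested and 0 called, 2 with a positive and 2 with a negative log2 fold change. Nrg4, a ligand of ERBB4, measured 3.02 and 3.05 CPM in the wild type and 4.17 and 4.76 CPM in the knockout (log2 fold change 0.56, SE 0.29). Egf, the mouse gene for EGF itself, measured 5.36 and 6.83 CPM against 4.27 and 4.43 CPM (-0.49, SE 0.27). Areg, which encodes the EGFR ligand amphiregulin, was at 1.89 and 1.71 CPM against 1.58 and 0.766 CPM. The 4 ligands under the filter were Ereg, Btc, Epgn and Nrg3, with at most 20 counts in any library.

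Of 5 other FGF receptor and co-receptor genes, 3 were tested and 0 called, and Fgfr4 and Kl were under the filter with at most 7 counts. Fgfr3 measured 62.3 and 81.8 CPM in the wild type and 74.1 and 49.6 CPM in the knockout (log2 fold change -0.22, SE 0.21). Fgfrl1, a receptor-like protein without a kinase domain, was at 0.06 (SE 0.18), and the co-receptor Klb at 0.27 (SE 0.66). Of 21 other FGF ligands, 16 were under the filter with at most 11 counts in any library, and 0 of the 5 tested were called. Those with the smallest p, Fgf11 at -0.41 (SE 0.28), Fgf13 at 0.26 (SE 0.28) and Fgf12 at -0.21 (SE 0.23), belong to the FGF homologous factors, which stay inside the cell.

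Genes that release ligands and turn receptors over, and those of heparan sulfate, were near the median of all genes. Of 16 shedding and turnover genes 15 were tested and 0 called, 9 positive and 6 negative with a median of 0.02. The metalloprotease genes Adam12, Adam17 and Adam10 were at -0.22 (SE 0.15), 0.12 (SE 0.15) and 0.12 (SE 0.17). Of 18 heparan sulfate proteoglycan and enzyme genes, all were tested and 0 called, 10 positive and 8 negative with a median of 0.01. The glypican gene Gpc5 had an unadjusted p of 0.045 in the edgeR test at 1.36 and 2.68 CPM in the wild type and 1.16 and 0.766 CPM in the knockout (log2 fold change -1.08, SE 0.47, adjusted p = 1.00). The syndecan gene Sdc4 was at -0.34 (SE 0.23) and the glypican gene Gpc4 at -0.38 (SE 0.26). Single libraries carried much of these values: Gpc5 was at -0.48 without wild type replicate 2, Sdc4 at -0.02 without wild type replicate 1 and Gpc4 at -0.02 without knockout replicate 2.

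Inside the cell, 25 adaptor and RAS-ERK cascade genes were tested and 0 called, 12 positive and 13 negative with a median of 0.00. The knockout libraries were both above the wild type libraries for 8 of the 25 genes (12.5% of all genes) and both below for 2 (14.8% of all genes). The ERK1 gene Mapk3 measured 29.0 and 28.7 CPM in the wild type and 31.8 and 42.5 CPM in the knockout (log2 fold change 0.36, SE 0.19). This change was 0.14 without knockout replicate 2 and 0.56 without knockout replicate 1. Rasa1, which switches RAS off, was at 0.26 (SE 0.14), and the FGF receptor adaptor Frs3 at 0.38 (SE 0.27). Of 16 ERK feedback and target genes 0 were called, 6 positive and 10 negative with a median of -0.01. The ERK phosphatase gene Dusp6 was at -0.67 (SE 0.20) and the FGF signalling inhibitor Il17rd at 0.51 (SE 0.19), with unadjusted p of 0.0065 and 0.022 in the edgeR test and adjusted p = 1.00 for both. For Dusp6, leaving out knockout replicate 1 gave -0.92 (edgeR adjusted p = 0.037), whereas leaving out wild type replicate 1 or knockout replicate 2 gave -0.45 each (adjusted p = 1.00). Phlda1 was at 0.45 (SE 0.25), with 0.15 without wild type replicate 2 and 0.83 without wild type replicate 1.

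**Figure D5:**
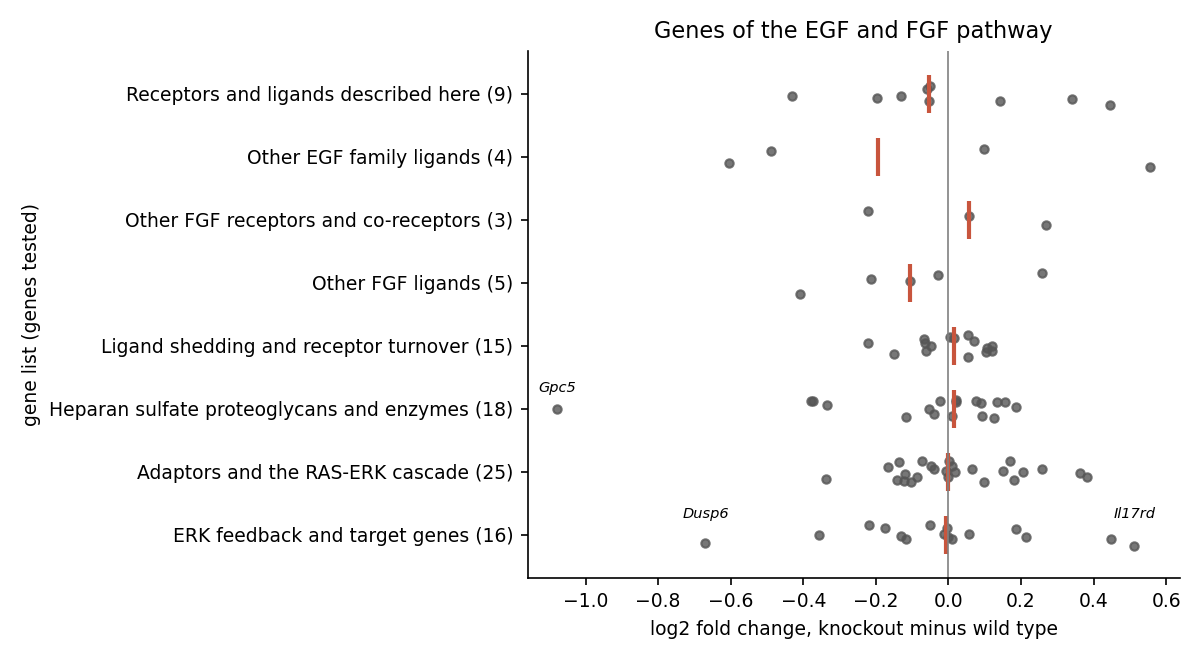
Log2 fold change, knockout minus wild type (horizontal axis), of each tested gene of the lists (rows, number of genes tested in brackets), with the median of each list as a red bar. Genes with an unadjusted p under 0.05 are named: Gpc5, Dusp6 and Il17rd, while 0 genes in these lists passed the adjusted threshold.

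Markers of other cells bear on where receptor and ligand RNA could come from, since in bulk RNA fewer cells of a type and less RNA per cell cannot be told apart. The summed level of 9 oligodendrocyte lineage markers was 1421 and 1288 CPM in the wild type and 1463 and 1407 CPM in the knockout, nearly all from Olig1 and Olig2. All 8 that were tested had a positive log2 fold change (49.7% of all genes), with a median of 0.36, and 5 had both knockout libraries above the wild type (12.5% of all genes). Sox10, which drives this lineage, had 7 and 22 counts in wild type cells and 61 and 46 counts in knockout cells. Nrg1 and Tgfa were higher in the same libraries, and whether these markers had a part in that was not tested. The summed level of 8 mesenchymal and mural markers was 9.96 and 7.26 CPM in the wild type and 4.33 and 3.72 CPM in the knockout. Nearly all of that difference lay in Acta2 and Tagln, the only 2 tested, which summed to 8.76 and 5.18 CPM and to 3.27 and 2.74 CPM, while the other 6 markers summed to at most 2.07 CPM in any library. Hbegf was lower in the knockout too, and a part of these markers in that was likewise not tested. The 7 astrocyte markers summed to 488 and 605 CPM in the wild type and 626 and 532 CPM in the knockout. Their log2 fold changes were positive for 2 and negative for 5, with a median of -0.235. Both knockout libraries were below the wild type for 4 (14.8% of all genes) and above for 1 (12.5%). The 8 neuronal markers summed to 1023.4 and 1297.7 CPM against 1137.2 and 1358.5 CPM, nearly all from Map2. Of these, 6 were tested, 3 with a positive and 3 with a negative log2 fold change. Among the tested neuronal markers, both knockout libraries were below the wild type for 2 (14.8% of all genes) and above for 1 (12.5%). The 7 microglial markers summed to at most 8.02 CPM and the 6 endothelial markers to at most 4.02 CPM in any library, and Tmem119, a defining microglial gene, had 0 counts in all.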

How the data were processed

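Whole-number read counts per gene were deposited by the authors, 1 library per file and without normalisation. STAR 2.7.10, featureCounts and GRCm39 were used, per the submitters' processing notes. No source used here states the settings for strand and multiply matched reads. Symbols matched 52081 of 55414 identifiers. Exon lengths came from GENCODE M21, an annotation of GRCm38, and no coordinates are given.

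The 19912 genes passing edgeR's filterByExpr (minimum count 10) were scaled by TMM, and the genotypes were compared in edgeR 4.0.16 under R 4.3.3 (quasi-likelihood F test, robust=TRUE), with Benjamini-Hochberg adjustment over all of them and a threshold of 0.05. Dividing each log2 fold change by the root of its F gave its standard error. The test was checked on simulated data. Alternatives were other scaling, other filters, DESeq2 1.42.0, limma-voom (limma 3.58.1), robust=FALSE, each library left out, the replicate number as a block, and the longest transcript as length.

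The members and lists were chosen with earlier results of these data known. Named genes are Mettl4, the 10 genes and, from each list, up to 3 tested genes with the smallest p. No genes were named by likeness of pattern, since 4 libraries are too few.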

Additional observations from a re-analysis of the deposited data

How the results depend on the processing

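In each of the 12 alternative fits 0 of the receptor and ligand genes were called, and the smallest adjusted p of any was 0.473, for Hbegf. Over all genes, where 1 was called, the count was 41 with no low-count filter, and 6 with DESeq2. Leaving out wild type replicate 1 gave 31 calls and leaving out wild type replicate 2 gave 17. Leaving out knockout replicate 1 gave 47 and leaving out knockout replicate 2 gave 1, in fits where the lone library of a group is assumed to vary like the others. With the replicate block it was 9. Replicate numbers share a correlation of deviations of 0.228 over genes, and no label says that they mark pairs. Among the receptors and ligands, Erbb4, Hbegf, Tgfa and Nrg1 kept their direction in all 12 fits. In each of these genes the groups did not overlap, so leaving out 1 library could hardly turn the direction. The directions of Egfr (-0.14 to 0.051), Fgfr1 (-0.49 to 0.18), Fgfr2 (-0.12 to 0.012) and Fgf2 (-0.041 to 0.35) turned when a library was left out, and Erbb2 did so there (-0.38 to 0.37) and with limma-voom (0.0067). Without a library, values of Fgfr3 (-0.54 to 0.039), Klb (-0.40 to 0.72), Fgfrl1 (-0.12 to 0.27), Adam17 (-0.039 to 0.26) and Adam10 (-0.056 to 0.28) turned as well. The causes were not tested. Dusp6 passed with the replicate block (-0.67, adjusted p = 0.024). Levels per kilobase changed by 0.971-fold to 1.01-fold with the library total and by up to 2.33-fold with the longest transcript. Erbb3, at 0 to 4 counts, was too shallow to test, and the ligand genes had 58 to 185 counts.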
